A study of Mus musculus with 2 samples.

Results

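Bone morphogenetic protein (BMP) signalling was followed through 10 genes of the 27998 counted: the ligands Bmp2, Bmp4, Bmp5 and Bmp7, the secreted antagonist Grem1, and the response genes Id1, Id2, Id3, Msx1 and Msx2. They were chosen by symbol, and each symbol matched 1 row. The cells came from the pharyngeal apparatus and heart of Swiss Webster mouse embryos at embryonic day 9.5 and were sorted for GFP, which marks the Mesp1Cre lineage. One genotype was Mesp1Cre;Rosa26-GFPflox/+ (Ctrl) and the other Mesp1Cre;Rosa26-GFPflox/+;Tbx1flox/flox (cKO), in which Cre removes Tbx1 from that lineage, so both groups carried Cre and the reporter. Each genotype is 1 single-cell library made from a pair of pooled embryos, and the study's methods give slightly more somites for the cKO pair. Mesp1Cre acts in early mesoderm, hence ligand or antagonist made by pharyngeal epithelium, neural crest or other unsorted tissue is outside these data.

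BMP ligands are secreted dimers of the TGF-beta superfamily. They bind type I and type II serine/threonine kinase receptors, which phosphorylate SMAD1, SMAD5 and SMAD9; these enter the nucleus with SMAD4. Grem1 binds ligands outside the cell and keeps them from their receptors. Id1, Id2 and Id3 encode helix-loop-helix proteins without a DNA-binding region, Msx1 and Msx2 encode homeobox repressors, and all 5 are widely used as read-outs of BMP signalling, although other inputs act on them too. In the cardiopharyngeal mesoderm, BMP signalling is known for promoting myocardial differentiation and for restraining the formation of head muscle.

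With 1 library per group there is no replicate and no test between the genotypes. Values are summed counts of unique molecular identifiers (UMIs) of a gene over a population, per 1000000 UMIs of that population (CPM). Brackets after a level or a log2 ratio hold its exact Poisson or conditional 95% interval, which covers counting error only. A log2 ratio is the library labelled cKO over the library labelled Ctrl. To look inside each pool, values were also taken in cells with Xist UMIs and in cells with Y-linked UMIs. These are subsets of 1 library, not replicates. The wording "labelled" is kept because Tbx1 does not check the labels: its counts do not separate intact from recombined alleles, and its level was 55.2 CPM in the library labelled Ctrl against 124 CPM in that labelled cKO in multilineage progenitor-like cells (log2 ratio 1.17), and 121 against 94.4 CPM in branchiomeric muscle progenitor-like cells (log2 ratio -0.36).

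After filtering, 6591 and 8969 cells remained in the libraries labelled Ctrl and cKO, with medians of 16854 and 14189 UMIs, and 15 barcodes occurred in both. Clusters were found without the 10 genes and named from markers. The text turns on 6 named populations: multilineage progenitor-like cells (MLP-like, 664 and 850 cells), branchiomeric muscle progenitor-like cells (BrM-like, 523 and 743), somatic mesoderm and anterior second heart field-like cells (SoM/aSHF-like, 460 and 492), posterior second heart field-like cells (pSHF-like, 1178 and 1201), cardiomyocyte-like cells (CM-like, 273 and 463) and endothelium-like cells (366 and 379). Their clusters held between 6 of 10 and all of their listed markers, among them Nrg1, Aplnr and Six2 for MLP-like, Tcf21, Msc and Lhx2 for BrM-like, Hand1 and Hand2 for SoM/aSHF-like, Foxf1, Osr1 and Tbx5 for pSHF-like, Tnnt2 and Myl7 for CM-like, and Cdh5 and Pecam1 for endothelium-like cells. Markers were scored over both libraries together. Of those listed for MLP-like cells, Isl1 stood out in neither cluster 8 nor cluster 12, and Fgf10 in cluster 8 alone. A further 5 named populations and 4 unnamed clusters had at least 50 cells in each library, 15 populations in all. Unnamed clusters 21 (13 and 9 cells) and 22 (7 and 8 cells) were smaller and were left out. Erythroid-like cells, 151 of them, occurred in the library labelled cKO alone, and its MLP-like cells held 61.5 CPM summed over 7 erythroid markers against 0.352 CPM in the other library. Of 5 neural crest markers, Sox10 and Foxd3 were at 0 in MLP-like cells of both libraries, whereas all 5 were detected in BrM-like cells of both. The summed level of the 5 was 63.8 and 33.1 CPM there, and 34.9 and 22.5 CPM in BrM-like cells. The summed level of 5 epithelial markers was 20.3 and 24.0 CPM in MLP-like cells, 3.21 and 10.2 CPM in BrM-like cells, 132 and 195 CPM in SoM/aSHF-like cells and 132 and 255 CPM in CM-like cells, with 2 to 4 of the 5 detected in each library of these and Cldn6, Cldn7 or Cdh1 among those at 0. The part of erythroid, neural crest and epithelial RNA in the results was not tested.

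Promoter sequence is shown for the antagonist, a ligand and both Msx genes, as examples of members that were lower together in BrM-like cells, and for Id2. Grem1, Bmp4, Msx1 and Msx2 were all at least 2-fold lower in BrM-like cells of the library labelled cKO, as were 4.19% of all genes that could be compared there, and Id2 was lower in every population. The 250 bases before the start of each gene are from RefSeq (GRCm38), 5′ to 3′ on the gene's strand. Capitals mark GGCGCC, the GC-rich Smad element.

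Grem1 (chr2:113758649-113758898, strand minus): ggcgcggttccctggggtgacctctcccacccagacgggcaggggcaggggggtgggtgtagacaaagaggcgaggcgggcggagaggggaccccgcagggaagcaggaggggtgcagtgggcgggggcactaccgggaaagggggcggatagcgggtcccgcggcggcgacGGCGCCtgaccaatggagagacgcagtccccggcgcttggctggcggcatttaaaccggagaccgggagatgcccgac
Id2 (chr12:25096093-25096342, strand minus): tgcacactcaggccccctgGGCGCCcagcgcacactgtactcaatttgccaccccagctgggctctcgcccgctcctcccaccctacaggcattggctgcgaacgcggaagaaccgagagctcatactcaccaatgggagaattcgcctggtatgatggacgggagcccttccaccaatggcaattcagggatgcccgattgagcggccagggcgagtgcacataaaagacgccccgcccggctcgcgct
Bmp4 (chr14:46390670-46390919, strand minus): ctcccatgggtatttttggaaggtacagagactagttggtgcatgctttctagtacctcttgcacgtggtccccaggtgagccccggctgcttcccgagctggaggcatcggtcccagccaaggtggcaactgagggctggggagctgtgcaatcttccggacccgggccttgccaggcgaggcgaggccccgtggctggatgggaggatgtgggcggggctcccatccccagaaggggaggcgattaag
Msx1 (chr5:37824586-37824835, strand minus): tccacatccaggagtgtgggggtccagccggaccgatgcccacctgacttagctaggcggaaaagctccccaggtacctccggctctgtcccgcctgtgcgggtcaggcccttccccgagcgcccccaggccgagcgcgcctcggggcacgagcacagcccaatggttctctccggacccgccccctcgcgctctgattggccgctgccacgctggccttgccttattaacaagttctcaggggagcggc
Msx2 (chr13:53472781-53473030, strand minus): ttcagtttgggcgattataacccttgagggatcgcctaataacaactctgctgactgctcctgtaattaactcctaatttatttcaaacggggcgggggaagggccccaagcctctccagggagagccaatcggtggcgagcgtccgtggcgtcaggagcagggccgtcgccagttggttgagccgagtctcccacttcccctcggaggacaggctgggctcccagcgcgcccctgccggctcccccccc

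RefSeq promoters were matched for 7 of the 10 genes, the others being Bmp2, Bmp7 and Id1. GGCGCC, which reads the same on both strands, occurred once in Grem1, starting 78 bases before the gene, and once in Id2, 231 bases before it, and in none of Bmp4, Bmp5, Id3, Msx1 and Msx2. It is present in 9.54% of 27025 promoter windows of this kind. The T-box letters AGGTGT, searched on both strands, were in none of the 7 windows and in 12.0% of all. The paired Smad box GTCTAGAC was also in none of the 7 and in 0.174% of all. The short Smad box GTCT, which the paired box contains, was in all but Msx1 of the 7 and in 83.0% of all windows. These matches are letters in a window and not sites shown to be bound.

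Where ratios are ranked, counted or given as a range across populations, a population enters with at least 30 UMIs of the gene in both libraries together. On this footing Grem1 had the ratio farthest from 0 among the 10 genes, in BrM-like cells. How many of all genes are lower in as many populations was not computed, so counts of populations are descriptions. In MLP-like cells of the library labelled Ctrl 721 UMIs gave 84.7 CPM (78.6 to 91.1), and in those of the library labelled cKO 269 UMIs gave 25.2 CPM (22.3 to 28.5). This is 3.36-fold lower, with the log2 ratio at -1.75 (-1.95 to -1.54). Cells with Xist gave 77.3 and 30.3 CPM and cells with Y-linked UMIs 96.9 and 17.9 CPM. Thus both subsets of the one library lay above both of the other. Both MLP-like clusters showed the difference, with log2 ratios of -1.57 (-1.84 to -1.30) in cluster 8 and -1.95 (-2.28 to -1.62) in cluster 12.

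BrM-like cells, the progenitors of jaw and other pharyngeal muscle by their markers Tcf21, Msc, Lhx2 and Myf5, had 47.3 CPM of Grem1 (43.2 to 51.8) in the library labelled Ctrl and 4.29 CPM (3.16 to 5.68) in the other. The log2 ratio was -3.47 (-3.93 to -3.03), or 11-fold. The Xist subset gave 39.8 and 3.33 CPM and the Y-linked subset 58.6 and 5.75 CPM, again without overlap. Cluster 3, which met 5 of 7 cranial mesenchyme markers but stayed unnamed, showed a like difference, from 58.0 to 13.7 CPM (log2 ratio -2.08; -2.36 to -1.80).

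Across the populations of the library labelled Ctrl the levels of Grem1 had a steep order. MLP-like cells and dermomyotome-like cells (84.6 CPM; 74.2 to 96.0) led and did not differ beyond counting error. Cluster 3 and BrM-like cells followed, then cluster 6 at 29.6 CPM. In pSHF-like cells the level was 8.66 CPM and in SoM/aSHF-like cells 2.83 CPM. CM-like cells held 3 UMIs of Grem1 in one library and 1 in the other, and endothelium-like cells 3 and 2. In the library labelled cKO the order was led by dermomyotome-like cells at 64.0 CPM (53.4 to 76.0), with a log2 ratio of -0.40 (-0.72 to -0.09). Among the 11 populations with at least 30 UMIs in both libraries together, Grem1 was lower in 11, the interval lay below 0 in 10, and the median log2 ratio was -1.28.

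**Figure D1:**
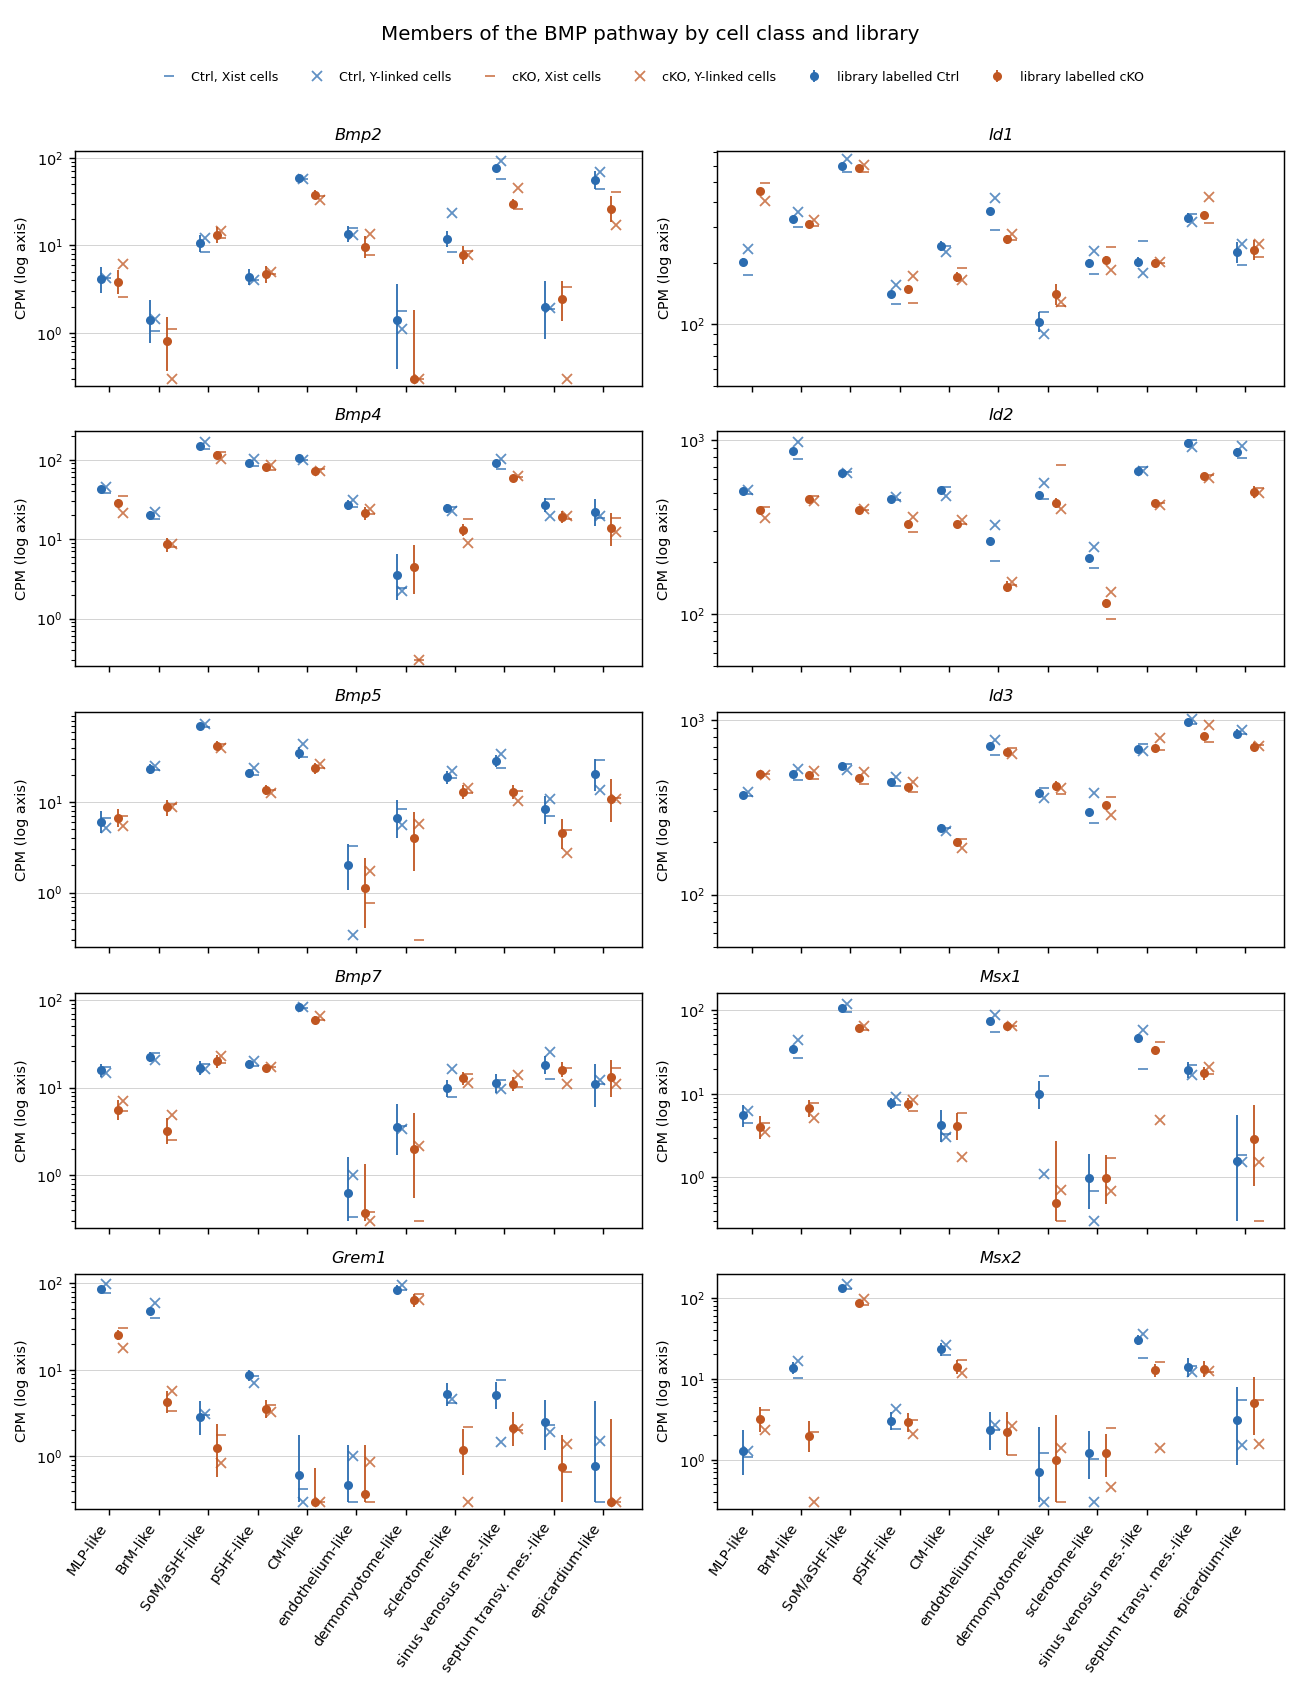
Level of each of the 10 genes (CPM, log axis) in the 11 named populations present in both libraries, with 1 point per library and bars for the exact Poisson 95% interval; values under 0.3 CPM are drawn at 0.3. Grem1 is high in MLP-like, BrM-like and dermomyotome-like cells, and its 2 points are farthest apart in BrM-like cells (47.3 and 4.29 CPM).

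The share of cells with a Grem1 UMI was taken after thinning each cell to 5000 UMIs, since the libraries differ in depth. It was 28.3% (24.8 to 31.9, exact binomial) of 651 MLP-like cells in the library labelled Ctrl and 11.3% (9.26 to 13.7) of 839 in the other. Without thinning the shares were 48.3% and 21.1%. In BrM-like cells the thinned shares were 18.7% (15.4 to 22.3) and 2.17% (1.24 to 3.49), and the unthinned ones 39.6% and 5.38%. Endothelium-like cells, taken as a population that should lack the gene, had 0 of 361 and 0 of 367 thinned cells with a Grem1 UMI, which allows shares of cells with a UMI of up to 0.831% and 0.817% by the limit of 3 counts, and of up to 1.02% and 1.0001% by the exact binomial interval used for the other shares; unthinned, the shares were 0.820% and 0.264%. Their median depths were 16529 and 13689 UMIs, against 12447 and 12077 in MLP-like cells.

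**Figure D2:**
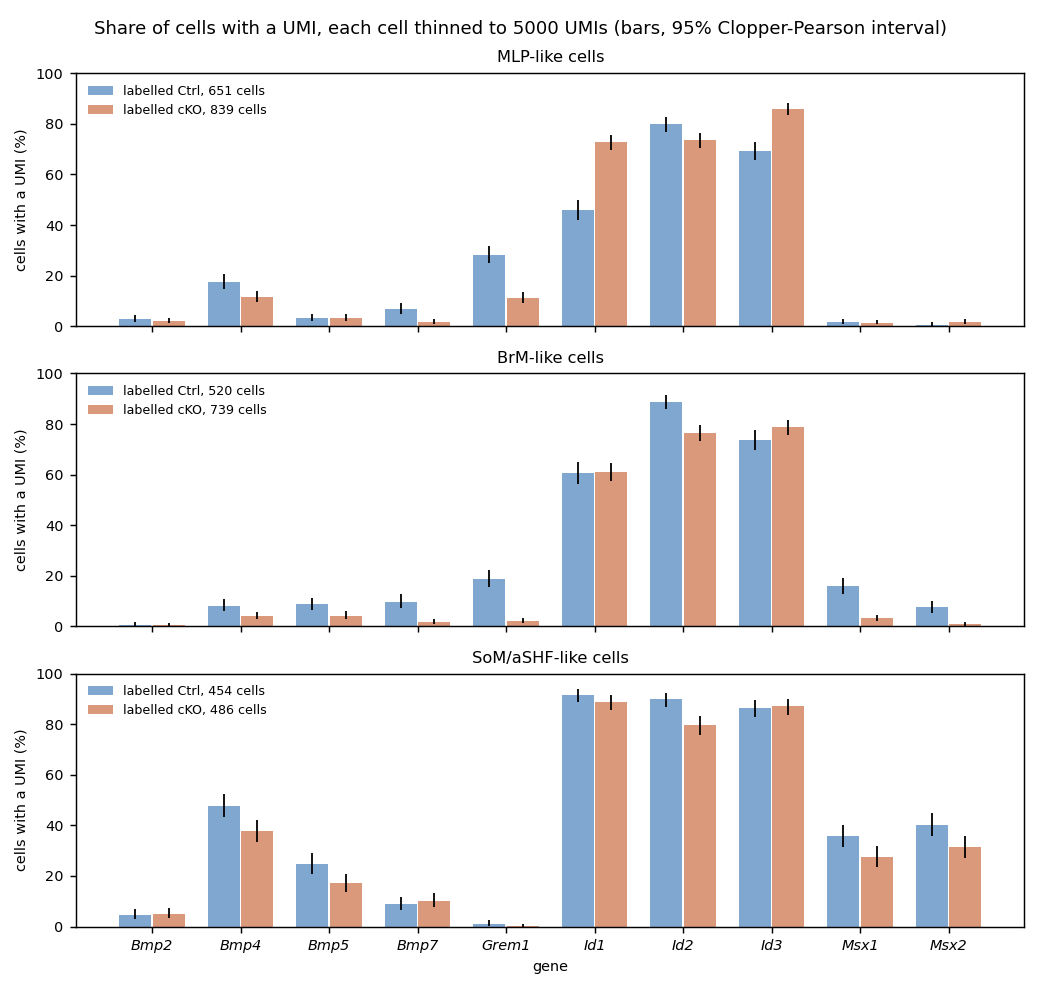
Percent of cells with at least 1 UMI of each gene (bars, axis from 0) after thinning to 5000 UMIs per cell, in MLP-like, BrM-like and SoM/aSHF-like cells of each library, with exact binomial 95% intervals. Grem1 in BrM-like cells stands at 18.7% and 2.17%, and Id1 in MLP-like cells at 45.9% and 72.7%.

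Among the ligands, Bmp7 had the ratio farthest from 0 in a population with at least 30 UMIs. BrM-like cells had 22.3 CPM (19.4 to 25.4) in the library labelled Ctrl and 3.21 CPM (2.25 to 4.45) in that labelled cKO, with the log2 ratio at -2.79 (-3.34 to -2.28). The subsets gave 24.7 and 20.9 CPM against 2.54 and 4.89 CPM. In MLP-like cells the level was 15.9 CPM (13.3 to 18.8) against 5.54 CPM (4.22 to 7.14), with the log2 ratio at -1.52 (-1.98 to -1.07), with subsets at 17.1 and 14.6 against 5.39 and 6.94 CPM. The thinned shares were 9.81% and 1.62% of BrM-like cells and 6.76% and 1.79% of MLP-like cells. In endothelium-like cells, read as background, they were 0.554% and 0.545%. The MLP-like difference was under 2-fold (log2 ratio -0.87) when presumed doublets were kept. The cells were then clustered anew and the class held 1282 and 1852 cells, so its membership changed as well.

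Apart from cluster 3 (-1.29; -2.03 to -0.59), the Bmp7 ratios of the other populations with at least 30 UMIs lay between -0.47 and 0.36. CM-like cells, which had the highest level of this ligand, stood at 82.4 CPM (74.6 to 90.8) and 59.5 CPM (54.1 to 65.3), with the log2 ratio at -0.47. In SoM/aSHF-like cells the values were 16.7 and 20.0 CPM, with a log2 ratio of 0.26 whose interval spans 0 (-0.10 to 0.62). The unnamed cluster 9 had 19.1 CPM in both. Of 13 populations with at least 30 UMIs, 9 were lower, 4 of them with an interval below 0.

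Bmp4, a ligand with roles in mesoderm and in the outflow tract, was highest in SoM/aSHF-like cells, at 148 CPM (139 to 157) and 116 CPM (108 to 124). In the library labelled Ctrl CM-like cells followed at 104 CPM, then sinus venosus mesenchyme-like cells (92.1 CPM; 84.7 to 99.9) and pSHF-like cells (91.8 CPM; 87.8 to 96.0), which did not differ beyond counting error. In the library labelled cKO pSHF-like cells came next, at 81.7 CPM, before CM-like cells at 72.3 CPM. Within pSHF-like cells the level was concentrated in cluster 11, at 232 and 209 CPM, whereas clusters 1 and 14 had between 33.5 and 45.7 CPM. The log2 ratio of Bmp4 was below 0 in 14 of 14 populations with enough UMIs, with the interval below 0 in 12 and a median of -0.51.

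BrM-like cells had the largest difference in Bmp4, 20.0 CPM (17.3 to 22.9) against 8.57 CPM (6.94 to 10.5), with the log2 ratio at -1.22 (-1.59 to -0.86). MLP-like cells had 42.3 and 28.7 CPM (log2 ratio -0.56; -0.78 to -0.33). There the subsets were 38 and 45.4 CPM in the library labelled Ctrl and 35.5 and 21.4 CPM in the other, so that the Xist subsets were nearly level. CM-like clusters differed from each other. Cluster 16, led by Myl2 and Myh7, had 139.5 and 71.5 CPM (log2 ratio -0.96; -1.21 to -0.72), while cluster 15, led by Myh6 and Actc1, had 67.5 and 72.9 CPM (0.11; -0.17 to 0.40).

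Bmp5, a ligand close to Bmp7 in sequence, was highest in SoM/aSHF-like cells, 69.0 CPM (63.1 to 75.2) against 42.1 CPM (37.5 to 47.1). Its lowest log2 ratio was in BrM-like cells, -1.41 (-1.77 to -1.06), where the levels were 23.3 CPM (20.4 to 26.5) and 8.75 CPM (7.10 to 10.7). The ratio was below 0 in 11 of 13 populations. MLP-like cells were an exception, at 6.11 and 6.76 CPM (0.15; -0.39 to 0.69).

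Bmp2, a ligand of the heart's inflow and cushion-forming regions, was highest in sinus venosus mesenchyme-like, CM-like and epicardium-like cells. Sinus venosus mesenchyme-like cells had 76.2 CPM (69.5 to 83.4) in the library labelled Ctrl and 30.04 CPM (26.7 to 33.6) in the other, with the log2 ratio at -1.34 (-1.56 to -1.13). Those cells had 113 Xist and 217 Y-linked cells in the first and 554 and 111 in the second, so their makeup by embryo differs. Both subsets were nevertheless lower, 56.8 to 26.2 CPM and 90.8 to 44.9 CPM. CM-like cells had 59.0 and 37.9 CPM (-0.64; -0.88 to -0.40) and epicardium-like cells 56.3 and 26.2 CPM (-1.11; -1.72 to -0.51). In BrM-like cells only 14 and 9 UMIs were counted, and MLP-like cells stood at 4.11 and 3.85 CPM.

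The Id genes differed among themselves. In MLP-like cells Id1 had 203 CPM (193 to 213) in the library labelled Ctrl and 450.4 CPM (438 to 463) in the other. It was thus 2.22-fold higher, with the log2 ratio at 1.15 (1.07 to 1.23). Its subsets were 176 and 234 CPM in the library labelled Ctrl and 494 and 404 CPM in that labelled cKO. Cluster 8 gave a ratio of 0.98 (0.88 to 1.09) and cluster 12 one of 1.36 (1.23 to 1.48). The thinned share of Id1-positive MLP-like cells was 45.9% (42.1 to 49.9) against 72.7% (69.6 to 75.7). In pSHF-like cells, the population with the lowest level among the 6, that share was 37.4% and 39.0%. The MLP-like difference stayed above 0 but was under 2-fold when presumed doublets were kept (0.69), at clustering resolution 0.6 (0.56) and in the Y-linked subset (0.79).

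In the other 5 of the 6 populations the Id1 ratio lay between -0.50 and 0.09. SoM/aSHF-like cells had the highest level, 603 and 586 CPM (-0.04; -0.10 to 0.02), and BrM-like cells had 329 and 313 CPM (-0.07). In CM-like cells Id1 was lower, 242 against 171 CPM (-0.50; -0.62 to -0.39), as in endothelium-like cells, 359.6 against 263 CPM (-0.45; -0.55 to -0.36). In the library labelled cKO the level of Id1 in MLP-like cells was exceeded in SoM/aSHF-like cells and in clusters 6 (489 CPM) and 0 (471 CPM); in the other library MLP-like cells, sinus venosus mesenchyme-like cells (203 CPM) and sclerotome-like cells (200.2 CPM) did not differ beyond counting error.

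Id3 in MLP-like cells was also higher in the library labelled cKO, by less than Id1. It had 374 CPM (361 to 387) against 489 CPM (476 to 502), with the log2 ratio at 0.39 (0.32 to 0.45). Subsets were 366 and 385 CPM against 494 and 485 CPM, and thinned shares 69.4% and 86.1%. BrM-like cells had 488 and 487 CPM of Id3, with subsets that overlap. Across 15 populations the Id3 ratio ran only from -0.27 in CM-like cells to 0.39 in MLP-like cells, with a median of -0.04.

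Id2 differed from both. It was lower in the library labelled cKO in 15 of 15 populations, with every interval below 0, ratios from -0.90 in BrM-like cells to -0.16 in dermomyotome-like cells, and a median of -0.64. In 14 populations both subsets lay below both of the other library. Of all genes that could be compared, 44.3% in MLP-like and 46.9% in BrM-like cells were lower in this way. The share of all genes lower in every population was not computed. BrM-like cells had 865 CPM (847 to 883) and 462 CPM (450 to 475), and MLP-like cells 508 CPM (493 to 523) and 396 CPM (384 to 408). Genotype, embryos and library cannot be told apart in this or in any other difference between the libraries. Grem1 and Bmp4 also had 1 sign in all populations with at least 30 UMIs, but their ratios varied in size, from -3.47 to -0.40 for Grem1 and from -1.22 to -0.06 for Bmp4. In single clusters Bmp4 was also above 0, as in endothelium-like cluster 17, with 2.05 and 6.78 CPM (1.72; 0.14 to 3.56).

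Septum transversum mesenchyme-like cells, marked by Colec10 and Wt1, had the highest levels of Id2 and Id3 among the 15 populations present in both libraries, 969 and 620.0 CPM of Id2 (-0.64; -0.71 to -0.58) and 978 and 813 CPM of Id3 (-0.27; -0.32 to -0.21). Epicardium-like cells, with 61 and 85 cells, had 854 and 505 CPM of Id2 and 837 and 704 CPM of Id3. In both of these the Id1 ratio was 0.04, with intervals that span 0. Sclerotome-like cells, marked by Pax1 and Pax9, had the lowest Id2, 209 and 115 CPM (-0.86; -0.97 to -0.75).

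Unnamed cluster 6, led by Irx2, Irx1 and Prrx1, held several members at once. Bmp4 stood there at 87.9 and 62.4 CPM (-0.50; -0.64 to -0.35), Msx1 at 38.3 and 16.3 CPM (-1.23; -1.49 to -0.97) and Msx2 at 37.0 and 18.6 CPM (-0.99; -1.24 to -0.75). Grem1 was at 29.6 and 18.0 CPM (-0.71; -0.98 to -0.45). Id1 was higher in the library labelled cKO there, 395 against 489 CPM (0.31; 0.25 to 0.37). In this cluster, as in MLP-like cells, lower Grem1 and higher Id1 stood side by side. Dermomyotome-like cells (-0.40 for Grem1, 0.45 for Id1) and pSHF-like cluster 1 (-1.40 and 0.26) had the same pairing. Both genes were lower in cluster 3 (-2.08 and -0.21) and in pSHF-like cluster 11 (-1.84 and -0.16). In BrM-like cells, where Grem1 had its lowest ratio, the Id1 ratio was -0.07. A link between the 2 genes was not tested.

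**Figure D3:**
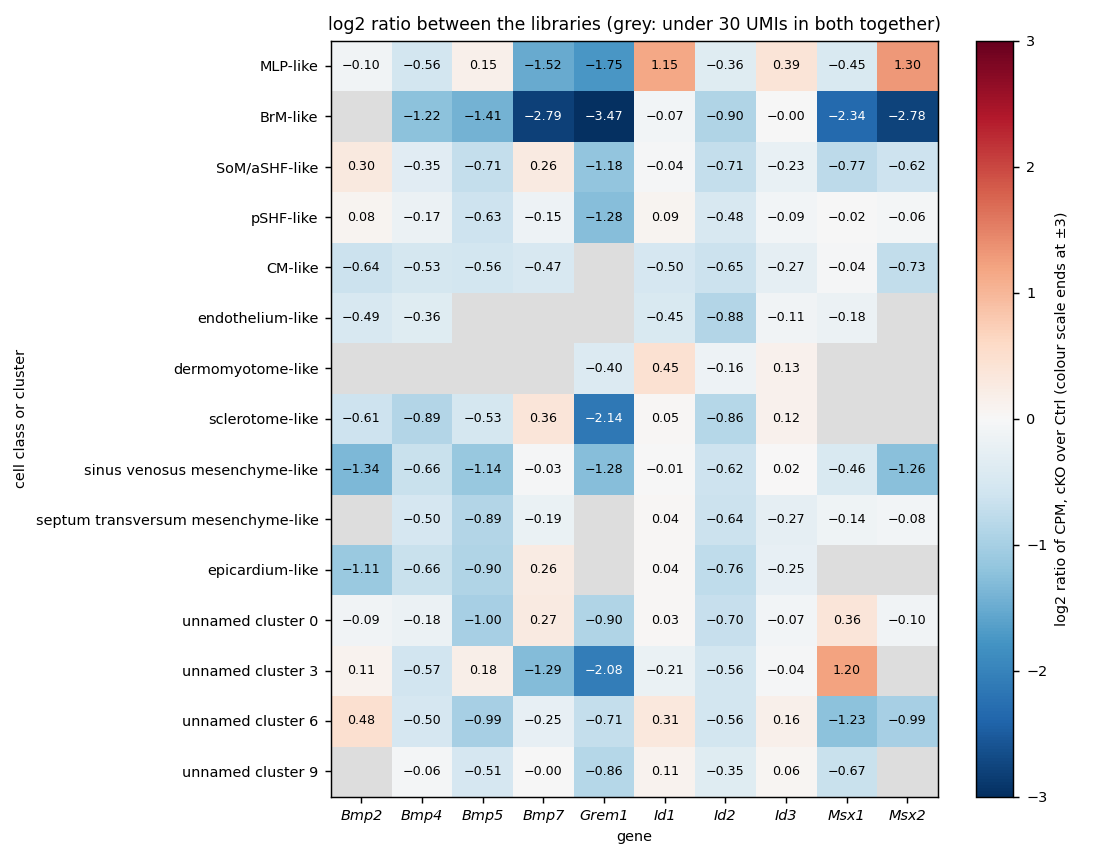
Log2 ratio (library labelled cKO over library labelled Ctrl) of each gene, as columns, in the 15 populations present in both libraries, as rows, with the colour scale ending at 3 on either side of 0 and grey where both libraries together hold under 30 UMIs. Grem1, Bmp7, Msx1 and Msx2 in BrM-like cells lie below -2, Id1 in MLP-like cells is at 1.15, and the Id2 column is below 0 throughout.

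Msx1 and Msx2 were both high in SoM/aSHF-like cells and in unnamed cluster 0, and Msx1 also in endothelium-like cells (73.7 and 65.3 CPM). In SoM/aSHF-like cells Msx1 stood at 106 CPM (98.8 to 114) and 62.0 CPM (56.4 to 68.0) (log2 ratio -0.77), and Msx2 at 134 CPM (125 to 142) and 86.9 CPM (80.2 to 94), at -0.62. In cluster 0 Msx1 was higher in the library labelled cKO, 83.2 against 107 CPM (0.36; 0.25 to 0.47), but its Xist and Y-linked subsets there, 132 and 60.8 CPM, lay on either side of the other library's.

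Among populations with at least 30 UMIs, the largest differences of both homeobox genes were in BrM-like cells. For Msx1 342 UMIs gave 34.3 CPM (30.8 to 38.1) in the one library and 76 UMIs gave 6.79 CPM (5.35 to 8.49) in that labelled cKO, with the log2 ratio at -2.34 (-2.72 to -1.98), with subsets of 27.0 and 44.0 CPM against 7.77 and 5.18 CPM. Msx2 had 13.5 CPM (11.4 to 16.0; 135 UMIs) and 1.96 CPM (1.23 to 2.97; 22 UMIs), with the log2 ratio at -2.78 (-3.51 to -2.13). Thinned shares were 15.8% and 3.11% for Msx1 and 7.50% and 0.812% for Msx2. As background, CM-like cells had Msx1 shares of 1.11% and 1.30%. No population was taken to lack Msx2. Its share of BrM-like cells in the library labelled cKO (0.299 to 1.76) lay between that of sclerotome-like cells, 0.309% (0.0375 to 1.11), and that of endothelium-like cells, 1.09% (0.298 to 2.77), and the 3 intervals overlap.

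The Msx1 ratio was below 0 in 10 of 12 populations, with the interval below 0 in 5 and above 0 in 2, and the Msx2 ratio in 8 of 9, with the interval below 0 in 5 and above 0 in 1. At low counts each gene was also more than 2-fold higher in 1 population. Msx2 in MLP-like cells had 11 and 34 UMIs, 1.29 and 3.19 CPM (1.30; 0.29 to 2.43). Msx1 in cluster 3 had 10 and 31 UMIs, 1.31 and 2.995 CPM (1.20; 0.13 to 2.39).

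Some cells held UMIs of both Msx genes. Among BrM-like cells of the library labelled Ctrl, 21 of 520 thinned cells held both; Msx2 was in 25.6% of Msx1-positive cells and in 4.11% of the rest. In SoM/aSHF-like cells those percentages were 49.4% and 35.3% in the one library and 47.8% and 25% in the other. A ligand and its antagonist showed less of a pattern: Grem1 was counted in 24.8% of Bmp4-positive and 29.0% of the remaining MLP-like cells of the library labelled Ctrl, and in 16.5% and 10.6% in the other library. In sparse counts such shares also follow the depth of each cell, and no test was made.

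Endothelium-like cells also held Msx1, 73.7 CPM (67.2 to 80.7) and 65.3 CPM (58.7 to 72.5), with nearly all of it in 1 of their clusters. Cluster 17, led by Klf2, Hapln1 and Nfatc1, genes known from endocardium, had 183 and 168 CPM, whereas cluster 13, led by Cldn5, Emcn and Sox18, had 7.48 and 8.35 CPM. The interval of the Msx1 ratio spanned 0 in both clusters (-0.33 to 0.09 in cluster 17). In cluster 17 no UMIs of Grem1, Bmp5 or Bmp7 were counted in either library.

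Counts of genes past 2-fold put these ratios against the background of all genes. A gene entered with at least 10 CPM in either library and at least 30 UMIs in both together, and a gene that enters only through the library where it is high had to differ. In MLP-like cells 6 of the 10 genes entered. Of these, 2 were at least 2-fold lower (Bmp7 and Grem1), against 3.76% of 7685 genes, and 1 was at least 2-fold higher (Id1), against 0.664%. In BrM-like cells 9 entered, all but Bmp2, and 6 were at least 2-fold lower (Bmp4, Bmp5, Bmp7, Grem1, Msx1 and Msx2), against 4.19% of 7641 genes. None was higher, against 1.43%. All 6, and Bmp7 in MLP-like cells, entered through the library labelled Ctrl alone, since each was under 10 CPM in the other, so these counts describe the members and support nothing further.

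In the other 4 of the 6 populations no member that entered reached 2-fold in either direction; Grem1 in pSHF-like cells, with 8.66 and 3.56 CPM and a log2 ratio of -1.28, was under 10 CPM in both libraries and did not enter. For SoM/aSHF-like cells 9 genes entered, and the background was 2.31% lower and 0.619% higher of 7755 genes. For pSHF-like cells 6 entered, against 0.71% lower and 0.513% higher. For CM-like cells 8 entered, against 1.5% lower and 0.603% higher, and for endothelium-like cells 6 entered, against 1.86% lower and 0.449% higher. Over all kept cells all 10 entered and Grem1 alone was at least 2-fold lower, 22.5 against 7.51 CPM (-1.58; -1.69 to -1.48), with a background of 0.829% lower and 0.472% higher. It too entered through the library labelled Ctrl alone, so nothing is read from this count.

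Non-overlap of the subsets is a much weaker measure. In MLP-like cells both subsets were lower without overlap for 4 of the 6 genes (Bmp4, Bmp7, Grem1 and Id2) and higher for 2 (Id1 and Id3), while 44.3% of all genes were lower and 27.3% higher in this way. In BrM-like cells 7 of 9 were lower and 0 higher, against 46.9% and 24.7%. The median log2 ratio of the genes that entered was -0.46 in MLP-like cells against -0.09 for all genes, and -1.41 in BrM-like cells against -0.12. Since 6 of the 9 genes in BrM-like cells, and Bmp7 in MLP-like cells, entered only through the library where they were high, these counts and medians are descriptions and nothing is read from their distance to all genes.

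**Figure D4:**
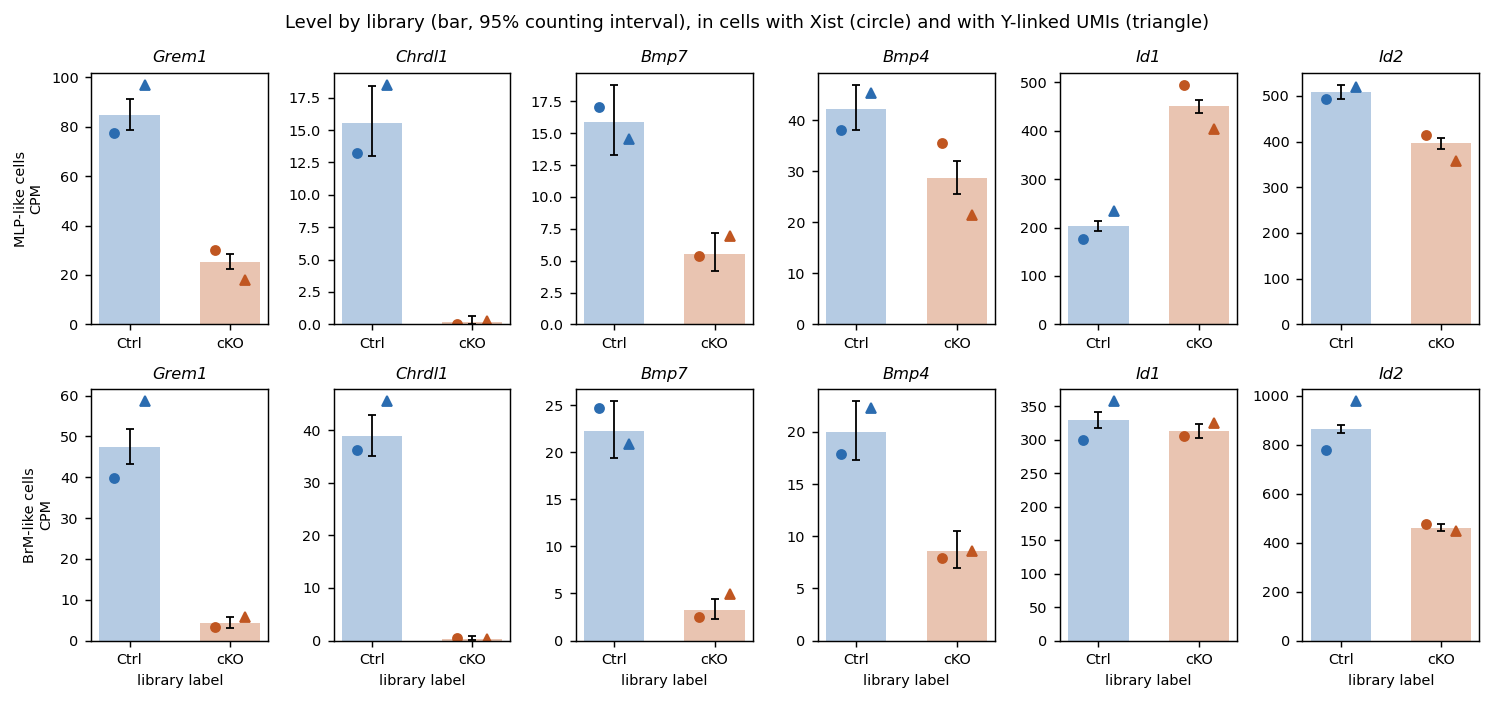
Level (CPM, axis from 0) of Grem1, Chrdl1, Bmp7, Bmp4, Id1 and Id2 in MLP-like cells, upper row, and BrM-like cells, lower row; bars give each library with its exact Poisson 95% interval, circles its cells with Xist UMIs and triangles its cells with Y-linked UMIs. For Grem1 in MLP-like cells the points of the library labelled Ctrl are at 77.3 and 96.9 CPM and those of the other at 30.3 and 17.9 CPM, whereas Id1 has the opposite order.

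A list of 30 further genes of the BMP pathway (receptors, SMADs, other antagonists and further targets) was read the same way. In MLP-like cells 13 entered and 1 was at least 2-fold lower (Chrdl1), against 3.76% of all genes. In BrM-like cells 13 entered, with 2 lower (Chrdl1, and Bmpr2 at -1.15), against 4.19%. In SoM/aSHF-like cells 1 of 15 was lower (Id4, -1.02), against 2.31%, and in pSHF-like cells 0 of 15, against 0.71%. In CM-like cells 2 of 17 were lower (Bmp10, a ligand of the trabeculated heart, -1.19, and Bmpr2, -1.22), against 1.5%, and in endothelium-like cells 1 of 14 (Bmpr2, -1.01), against 1.86%. None that entered was at least 2-fold higher in these 6 populations. Tbx2 stood at 1.02 in BrM-like cells, with too few CPM to enter. Chrdl1, Id4 and Bmp10 were under 10 CPM in the library labelled cKO and entered through the other alone, so these counts too are a description. The list's median log2 ratio lay between -0.60 and -0.48 in the 6 populations, against -0.12 to -0.08 for all genes.

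Chrdl1, a secreted antagonist that binds BMPs like Grem1 but through chordin-type repeats, had the largest ratio of the list. MLP-like cells held 132 UMIs (15.5 CPM) in the library labelled Ctrl and 2 UMIs (0.188 CPM) in that labelled cKO, with the log2 ratio at -6.37 (-9.43 to -4.49). BrM-like cells held 387 UMIs (38.8 CPM) and 4 UMIs (0.357 CPM), a ratio of -6.76 (-8.65 to -5.40). SoM/aSHF-like cells held 18 and 0 UMIs. In pSHF-like cells the difference was smaller, 5.97 and 3.45 CPM (-0.79; -1.25 to -0.34). Grem1 and Chrdl1 were thus both at least 2-fold lower in MLP-like and BrM-like cells. Twsg1, which encodes a secreted BMP-binding protein, was lower by less, 38.4 and 27.4 CPM in MLP-like cells (-0.49; -0.72 to -0.26) and 33.7 and 24.4 CPM in BrM-like cells (-0.47; -0.70 to -0.23), and its ratio was below 0 in 15 of 15 populations. Fst, which encodes follistatin and mainly binds activins, stood at 25.03 and 43.8 CPM in MLP-like cells (0.81; 0.57 to 1.05) and at 34.9 and 23.2 CPM in BrM-like cells (-0.59; -0.83 to -0.35). Over 13 populations Fst was at least 2-fold lower in 4 and higher in 1, cluster 6 (2.31). Other antagonists of the list went up. Nbl1 was at least 2-fold higher in 3 of 3 populations (1.13 to 2.30). Nog had a median ratio of 0.35 over 9 populations, and its highest was 1.41 in cluster 0.

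On the receiving side, Bmpr1a, a type I receptor, was lower in 15 of 15 populations (log2 ratios -0.90 to -0.54), as were Bmpr2, Smad1 and Smad4. Bmpr1a stood at 80.8 and 51.9 CPM in MLP-like cells and at 67.4 and 43.5 CPM in BrM-like cells. Like Id2, these and Twsg1 were thus lower in every population, a pattern whose share among all genes was not computed. Acvr2b, a type II receptor, was near 0 in MLP-like cells (0.03; -0.14 to 0.21). Bambi, a pseudoreceptor that BMP signalling itself raises, was higher in MLP-like cells, 48.2 against 76.4 CPM (0.67; 0.49 to 0.84), as Id1 and Id3 were. The inhibitory Smad7 had 30.7 and 28.3 CPM there (-0.12; -0.36 to 0.13). Over 15 populations the Bambi interval lay above 0 in 6 and below 0 in 5. Its highest ratio, 1.25, was in cluster 3, where Id1 was at -0.21 and Id3 at -0.04.

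**Figure D5:**
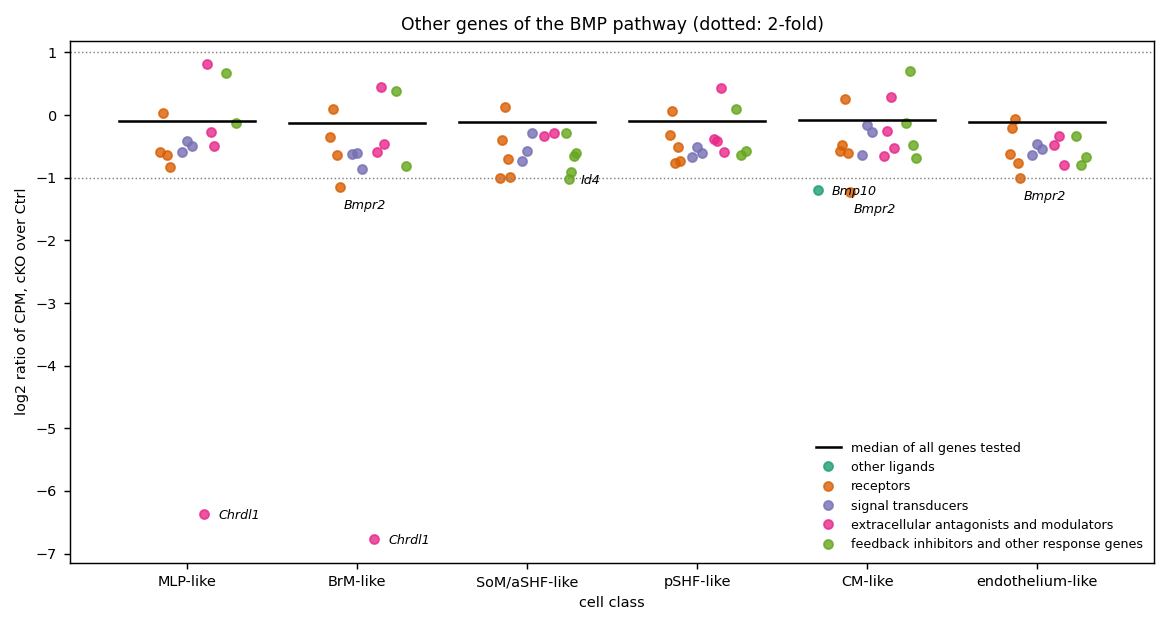
Log2 ratio (library labelled cKO over library labelled Ctrl) of the other BMP pathway genes that entered in each of the 6 populations, 1 point per gene coloured by its role; the black line is the median of all genes that entered and the dotted lines mark 2-fold. Most points lie between 0 and -1 and below the line, and Chrdl1 lies at -6.37 and -6.76.

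For likeness of pattern, Pearson's r was taken between log2 levels over 41 points, 1 per cluster and library, across 4888 genes; points share libraries and depth, so r is a description. Grem1 was most like Eya1 (r = 0.87), Gas2 (0.78) and Six4 (0.77). Bmp4 was most like Rgs5 (0.80), Pde3a (0.77) and Bmp5 (0.76), Bmp5 like Pde3a (0.85), Bmp2 like Arhgap1 (0.87) and Bmp7 like Mrps36 (0.89). Among the response genes, Msx2 was most like Ppp2r2b (0.83), Dkk1 (0.77) and Tnc (0.75), Msx1 like Stx18 (0.72), Id1 like Man1a2 (0.76), Id2 like Casc4 (0.86) and Id3 like Zbed3 (0.89). Between the 10 genes themselves r was 0.70 for Id1 and Id3, 0.68 for Msx1 and Msx2, and -0.51 for Grem1 and Bmp2.

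By position, the genes lie on 7 chromosomes of GRCm38. Grem1 (ENSMUSG00000074934, chromosome 2, 113748675 to 113758648), Bmp2, Bmp7 and Id1 (ENSMUSG00000042745, chromosome 2, 152736251 to 152737410) share chromosome 2 but are far apart. Msx1 (ENSMUSG00000048450) is at 37820491 to 37824585 of chromosome 5, Msx2 (ENSMUSG00000021469) at 53466881 to 53472780 of chromosome 13, Bmp4 (ENSMUSG00000021835) at 46383525 to 46390669 of chromosome 14 and Id2 (ENSMUSG00000020644) at 25093799 to 25096092 of chromosome 12. UMIs are counted over a whole gene, at its 3′ end, so they do not separate transcripts of one gene.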

How the data were processed

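Single-cell RNA was measured in 2 libraries. The deposited values are raw counts of UMIs per gene and barcode, which the authors made with Cell Ranger 3.1.0 on mm10, per the submitters' processing notes. Barcodes with under 1000 genes or over 10% mitochondrial UMIs were left out (411 and 508), then the highest Scrublet scores (scanpy 1.11.5) at 0.8% per 1000 cells (416 and 804), as the caller's own threshold marked 0 cells of the library labelled Ctrl. Seurat 5.3.0 (R 4.3.3) clustered the cells on 2000 variable genes, 30 dimensions and resolution 1, first to find genes that differ between libraries within a class, then without those. The 10 genes never entered. A cluster was named when at least 3 of its markers and 50% of the list stood out and a marker was among its 10 leading genes.

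Levels, ratios and shares were computed with scipy 1.17.1 and tested on simulated data. Thinning and the 2-fold rule are as stated in the text. Genes named beyond the 10 are those past 2-fold in the pathway list, the receptors and SMADs described, and the 3 genes most alike. Fst, Twsg1, Bambi, Smad7, Acvr2b, Tbx2, Nbl1 and Nog were named after their values were seen. The members and lists were chosen with earlier results of these data known. Alternatives varied the minimum level, doublets, resolution, integration, total, scaling, thinning and subset.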

Additional observations from a re-analysis of the deposited data

Results flagged for a closer look

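These log2 ratios were marked by the Xist and Y-linked subsets. Both subsets of the library labelled cKO lay below both of the other in one population and above both in another. The mark is a weak one. Of all genes that could be compared, 44.3% in MLP-like and 46.9% in BrM-like cells lay below in this way, and 27.3% and 24.7% above. How many of all genes would be marked was not counted. The difference between populations was not tested, and the subsets come from single libraries. For Id1 the ratio was 1.15 in MLP-like cells, against -0.45 in endothelium-like cells and -0.50 in CM-like cells. Id3 had 0.39 in MLP-like cells, against -0.27 in CM-like and -0.23 in SoM/aSHF-like cells. For Bmp7 the ratio was 0.26 in SoM/aSHF-like cells, against -2.79 in BrM-like, -1.52 in MLP-like, -0.47 in CM-like and -0.15 in pSHF-like cells. Bmp2 had 0.30 in SoM/aSHF-like cells and -0.64 in CM-like cells. The intervals of the ratios for Bmp2 and Bmp7 in SoM/aSHF-like cells and for Bmp7 in pSHF-like cells span 0.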

How the results depend on the processing

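None of the 9 log2 ratios past 2-fold in MLP-like and BrM-like cells changed sign under the 9 alternatives run for its population. Equal weighting of clusters was run for MLP-like cells and not for BrM-like cells, which are 1 cluster, and the fit without integration for BrM-like cells and not for MLP-like cells. Over these alternatives the ratio of Grem1 ran from -2.43 to -1.35 in MLP-like cells and from -3.77 to -3.33 in BrM-like cells, and the other 5 genes at least 2-fold lower in BrM-like cells stayed so in 9 of 9 (Msx2 -5.85 to -2.06, Bmp7 -3.28 to -2.09, Msx1 -3.09 to -1.80, Bmp5 -1.51 to -1.25, Bmp4 -1.46 to -1.12). Bmp7 in MLP-like cells passed 2-fold in 8 of 9 and Id1 in 6 of 9 (0.56 to 1.57). The number of members at least 2-fold lower in MLP-like cells, 2, was 1 at a minimum of 50 CPM and 1 with presumed doublets kept; the number higher, 1, was 2 with no minimum level, 0 with presumed doublets kept and 0 at resolution 0.6. In BrM-like cells 6 lower became 0 at a minimum of 50 CPM, where fewer genes enter. For SoM/aSHF-like cells 0 lower became 1 with no minimum, 3 without integration (Bmp5, Msx1 and Msx2) and 1 after the first pass only. For pSHF-like cells 0 lower became 1 with no minimum, 1 with presumed doublets kept, 1 without integration and 1 with a total that leaves out mitochondrial, ribosomal protein and haemoglobin genes. All genes at least 2-fold lower, 289 in MLP-like and 320 in BrM-like cells, were 60 and 72 at a minimum of 50 CPM and 674 and 708 with no minimum. Apart from these minimum levels, the cause was not tested. Without integration MLP-like cells numbered 574 and 16, too few for a value. Weighting the clusters of a class equally, chosen after seeing the data, moved 1 of 40 ratios. Other scalings shifted the median of all genes by under 0.1. No paired analysis was possible because each group is 1 library. Low counts limit what can be said of Grem1 in CM-like and endothelium-like cells, and of Bmp2 in BrM-like cells.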

Other observations

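Sinus venosus mesenchyme-like cells showed a split of both Msx genes by subset. In the library labelled Ctrl, Msx1 stood at 19.8 CPM in cells with Xist UMIs and at 58.2 CPM in cells with Y-linked UMIs. In the library labelled cKO the order was the other way, 41.7 and 4.83 CPM. Msx2 had 18.2 and 35.5 CPM in the former and 16.3 and 1.38 CPM in the latter. The pooled log2 ratios, -0.46 for Msx1 and -1.26 for Msx2, therefore average over subsets that differ, with 113 and 217 cells in the one library and 554 and 111 in the other.

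Msx1 in dermomyotome-like cells was counted 28 times in the library labelled Ctrl, at 9.91 CPM, and 1 time in that labelled cKO (log2 ratio -4.32; -9.67 to -1.72). Of the 28 UMIs, 27 were in cells with Xist. The Xist subsets were at 16.2 and 0 CPM and the Y-linked ones at 1.11 and 0.709 CPM. These cells had 81 Xist and 45 Y-linked cells in the library labelled Ctrl and 13 and 82 in the other, so library and makeup by embryo cannot be told apart here. Smad9, the SMAD with the lowest counts here, had 57 and 12 UMIs in BrM-like cells (-2.42; -3.45 to -1.50), too few CPM to enter the 2-fold count.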
